A study of Mus musculus with 6 samples.

Results

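The genes described here encode the protein subunits of the mitochondrial ribosome. They were chosen as the protein-coding genes whose symbol begins with Mrpl or Mrps followed by a digit, and 78 of the 54532 genes in the deposited table met this rule. RNA-seq counts were available for 3 mouse T cell types, with 2 libraries each: naive T cells, Th17 cells (helper cells that secrete IL-17) and Treg cells (regulatory cells that depend on the transcription factor Foxp3). All 3 groups carried the WT genotype, were labelled as untreated and were labelled with thymus as their tissue. No label used here states the strain, the age, or whether the Th17 and Treg cells were cultured or sorted. Nor do they state separate animals behind the 2 libraries of each type, and the p-values reflect library-to-library spread alone, which may be technical. Libraries are named by their type and by the number in the column name, 1 or 5.

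The mitochondrial ribosome sits in the mitochondrial matrix and makes the 13 proteins that mitochondrial DNA encodes, all of them parts of the respiratory chain or the ATP synthase. Its RNAs come from mitochondrial DNA, whereas its proteins are encoded in the nucleus, made in the cytosol and imported. The small subunit holds the mRNA and reads the codons, and the large subunit joins the amino acids and releases the chain through a tunnel toward the inner membrane. Part of the proteins descend from those of the bacterial ribosome and part are found in mitochondria only. T cells are known to enlarge their mitochondria after activation, which takes new mitochondrial translation.

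By structure, 51 members belong to the large subunit and 26 to the small one. Mrps30 and Mrps18a carry a small-subunit name but sit in the large subunit, and Mrps36 was set aside because its product is counted with the 2-oxoglutarate dehydrogenase complex. In the large subunit 29 members have a bacterial counterpart, and in the small subunit 16 do. The members lie on 17 chromosomes, and chromosome 11 holds the largest number, 11 of the 78. Of the 78 members, 77 passed the filter on low counts. The member left out, Mrpl53 (chr6:83109040-83109939, mm10), had 0 counts in all 6 libraries, and another protein-coding gene of the table, Gm42688, covers its whole 900 bases on the same strand.

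The stretches of DNA upstream of 6 members are shown because these genes, 3 higher and 3 lower in Th17 than in naive cells, had calls that held under all 14 other settings. Among such genes they changed the most of those whose RefSeq window reaches 120 bases upstream of the gene. Of the lower genes, Mrps28 and Mrpl23 changed more, but Mrps28 has no window in the table used and the window of Mrpl23 does not reach that far upstream of the gene's first base. Each is 120 bases from the plus strand of GRCm38.p6 (mm10), taken from the RefSeq promoter windows and ending before the gene's first base in the deposited table. Capitals mark exact matches, on either strand, to the letters searched for 6 factors known to act at promoters of nuclear genes for mitochondrial proteins or at promoters in general.
Mrpl45, chr11:97315596-97315715: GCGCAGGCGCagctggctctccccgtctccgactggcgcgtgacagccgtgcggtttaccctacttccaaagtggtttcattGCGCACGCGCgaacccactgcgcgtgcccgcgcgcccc
Mrps6, chr16:92058150-92058269: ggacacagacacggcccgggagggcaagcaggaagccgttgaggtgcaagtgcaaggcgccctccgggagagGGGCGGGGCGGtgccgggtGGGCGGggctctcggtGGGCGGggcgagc
Mrps2, chr2:28467946-28468065: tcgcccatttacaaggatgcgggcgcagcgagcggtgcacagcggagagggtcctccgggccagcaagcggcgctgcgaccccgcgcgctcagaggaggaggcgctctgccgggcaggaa
Mrpl24, chr3:87919386-87919505: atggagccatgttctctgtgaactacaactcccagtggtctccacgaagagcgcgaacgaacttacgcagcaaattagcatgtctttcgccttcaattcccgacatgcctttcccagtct
Mrpl58, chr11:115403632-115403751: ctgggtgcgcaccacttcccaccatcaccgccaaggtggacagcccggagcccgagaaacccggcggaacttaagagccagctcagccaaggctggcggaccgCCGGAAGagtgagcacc
Mrpl30, chr1:37890357-37890476: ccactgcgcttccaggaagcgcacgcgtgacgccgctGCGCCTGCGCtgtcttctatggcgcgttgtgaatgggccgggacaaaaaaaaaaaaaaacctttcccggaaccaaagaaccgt
The capitals in Mrpl45 and Mrpl30 are NRF1 matches (GCGCA and GCGC parted by any 1 base), those in Mrps6 are SP1 matches (GGGCGG), 2 of which overlap, and that in Mrpl58 is an ETS match (CCGGAAG). The stretches of Mrps2 and Mrpl24 held none of the 6 motifs.

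Windows of 300 bases, from 250 before to 50 after the RefSeq start site, were found for 69 members, and 57 of these held at least 1 of the 6 motifs. The NRF1 letters stood in 13 of the 69 windows (18.8%), against 4.6% of the 32851 windows of all genes. For each member only 1 window was used, that with the start site nearest to the gene's first base. The windows of all genes were counted without such a choice and without a filter on level, so the 2 sets are not alike. The ETS letters, which GABP reads, stood in 24 (34.8% against 8.86%), and the YY1 letters AAGATGG in 13 (18.8% against 6.34%). The GC-rich SP1 letters stood in 34 (49.3% against 35.7%). The E-box CACGTG, which MYC and its relatives read, stood in 5 (7.25% against 7.15%) and the CRE letters TGACGTCA in 2 (2.90% against 1.79%). By the calls of Th17 against naive cells described below, the NRF1 letters stood in 2 of 6 windows of higher members, 5 of 18 of lower members and 6 of 44 of members not called. In the same order, the ETS letters stood in 1, 7 and 15 of these windows and the YY1 letters in 1, 4 and 8. The SP1 letters stood in 3, 12 and 19, the E-box in 0, 0 and 5 and the CRE letters in 0, 0 and 2. The calls moved with the settings, and a link between motif and call was not tested. A match is a run of letters and was not tested as a binding site.

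Total counts were 16458939 to 17901331 per library, and a floor of 3 counts corresponds to 0.160 to 0.207 CPM, the count scaled to a common library total after TMM normalization. The tested members had 141 to 2199 counts in a library, far above that floor. The labels matched the lineage genes Il17f and Foxp3. Il17f stood at 2199 and 2206 CPM in the Th17 libraries and at most at 0.387 elsewhere. Foxp3 stood at 1008 and 1008 CPM in the Treg libraries and at most at 15.04 elsewhere. The 4 Treg markers summed to 66.9 and 60.3 CPM in the naive and 2012 and 2001 in the Th17 libraries. Their sums were 3895.5 and 3673.5 in the Treg libraries. Of these 4, Th17 cells had 2 called higher and 2 lower against naive, and Treg cells 3 higher and 1 lower against Th17. All 4 were called higher in Treg against naive cells. Of the 4 Th17 markers, 4 were called higher in Th17 and 1 higher and 1 lower in Treg cells, each against naive. The 5 markers shared by T cells summed to 2922 and 3598 CPM in the naive and 1040 to 1374 in the other libraries. Markers of other cells were highest in the naive libraries: 8 B cell markers summed to 59.9 and 69.2 CPM against 4.85 to 6.97 in the other 4 libraries, and 10 myeloid and dendritic markers to 31.3 and 40.6 against 1.61 to 6.65. All 8 B cell markers were called lower in both Th17 and Treg than in naive cells. Of the 10 myeloid markers, 9 were called lower in each comparison and 8 in both: Cd14 was not called in Th17 cells, where its libraries lay above the naive ones, and Fcer1g was not called in Treg cells. The 6 NK cell markers summed to 30.3 and 63.0 CPM in the naive, 26.6 and 44.3 in the Th17 and 11.6 and 11.3 in the Treg libraries. Markers of dividing cells summed to 288 and 378 CPM in the naive, 3813 and 3584 in the Th17 and 940.0 and 1450 in the Treg libraries. The 5 markers of immature thymocytes summed to 57.2 and 73.99 CPM in the naive, 3.21 and 10.5 in the Th17 and 17.2 and 22.7 in the Treg libraries. Of these, Cd1d1 stood at 49.04 and 62.4 CPM in the naive, 1.18 and 2.52 in the Th17 and 14.3 and 20.1 in the Treg libraries, and Dntt at 8.20 and 11.6 CPM in the naive, 1.71 and 7.94 in the Th17 and 0.229 and 0.218 in the Treg libraries. Rag1, Rag2 and Ptcra were at 0 counts in both naive libraries, and Rag1 was at 42 and 41 counts in the Treg libraries. In bulk RNA, fewer cells of a type and less RNA per cell cannot be told apart, and the part of these markers in the results below was not tested.

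Together the members summed to 2582 and 3413 CPM in the naive, 2737 and 2619 in the Th17 and 2584 and 2826 in the Treg libraries, or 0.243% to 0.298% of all counts. Per gene, the mean over the 6 libraries ran from 13.6 to 89.1 CPM, with a median of 34.5, without regard to length. Divided by gene length, the mean level ran from 3.23 CPM per kb for Mrpl47, a protein at the tunnel exit, to 67.3 for Mrpl34, with a median of 14.2. Mrps21 (51.7 CPM per kb) and Mrpl52 (42.3) followed Mrpl34, and Mrps30 (3.40) stood next to Mrpl47 at the low end. The median was 15.7 CPM per kb over the tested members of the large subunit and 11.7 over those of the small subunit. These levels depend on the gene lengths in the table, which count all annotated exons.

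The summed level was higher in naive library 5 than in any other library. Of the 77 tested members, 72 were higher in naive library 5 than in naive library 1, with a median log2 difference of 0.42 (1.33-fold). Among all 15543 genes tested, 46.0% were higher in naive library 5 and the median was -0.02. The difference was not particular to the members: its median was 0.58 over the cytosolic ribosomal protein genes and 0.59 over the nuclear respiratory chain genes. It ran with gene length over all genes, from 0.18 in the shortest of 4 length classes to -0.19 in the longest, while the members' medians in the same classes were 0.52, 0.36, 0.39 and 0.30. The Th17 and Treg pairs lay closer, with 31 and 60 of the 77 members higher in library 5 and medians of -0.06 and 0.13. Comparisons with naive cells therefore rest on 2 libraries that differ from each other.

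**Figure D1:**
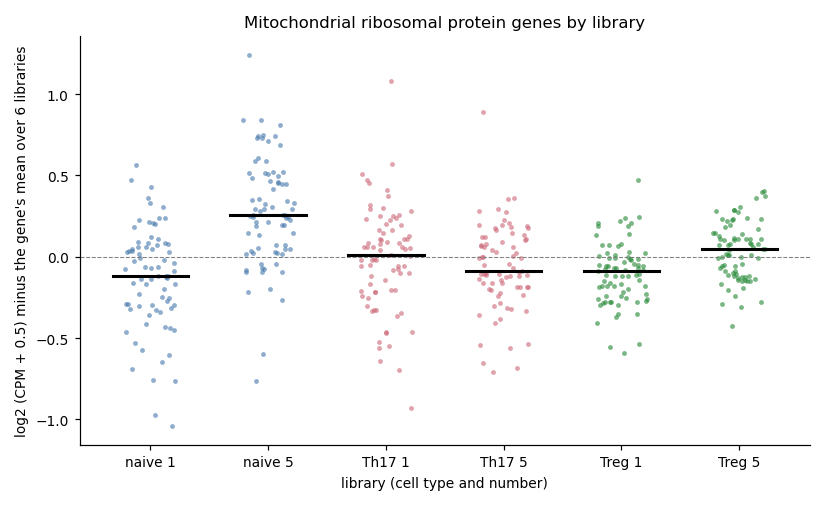
Levels of the 77 tested members in each of the 6 libraries. Each point is 1 gene, as log2 (CPM + 0.5) minus its mean over the 6 libraries, colours mark the cell type, and black bars are medians. Naive library 5 has the highest median. Before the gene means were taken off, the median was 5.37 there, and it ran from 4.92 (naive library 1) to 5.20 (Treg library 5) in the others.

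In Th17 cells, most members stayed within a narrow range of their naive level, while a few large- and small-subunit genes went in opposite directions. Mrpl45, which anchors the large subunit to the inner membrane beside the tunnel exit, was 3.75-fold higher, and Mrpl24 and Mrpl23, which line the rim of the same exit, were 2.55-fold and 2.64-fold lower. Mrpl47, also at the exit, was not called (log2 fold change -0.44 ± 0.23). A pattern by place in the ribosome was not tested. Of 77 members, 7 were higher and 21 lower at an adjusted p under 0.05 (edgeR quasi-likelihood test, Benjamini-Hochberg over all 15543 genes tested). That is 36.4% of the members, against 57.7% of all genes called (29.3% higher and 28.4% lower). Only 7 members (9.09%) were both called and changed at least 2-fold, against 39.3% of all genes. The members' median log2 fold change was -0.09 and the interquartile range was 0.68, against -0.03 and 1.68 for all genes. The range was 0.73 over nuclear respiratory chain genes, 0.76 over mitochondrial translation factors and 0.82 over genes of ribosome assembly. It was thus not particular to the members. The Th17 libraries lay entirely above the naive ones for 20 members and entirely below for 25, of 77, against 39.4% and 39.5% of all genes.

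The split between higher and lower calls depended on the scaling and on single libraries. Scaled by total count instead of TMM, 18 members were higher and 10 lower, so that 64.3% of calls were higher in place of 25%, and the median log2 fold change of all genes moved to 0.21. Over all genes, 62.6% of calls were higher by total count, in place of 50.8%. Scaled to the members themselves, 11 were higher and 11 lower (50%, against 56.3% of the calls over all genes). Without naive library 5, 13 were higher and 8 lower, and without naive library 1, 3 and 27. Without Th17 library 1, 3 were higher and 12 lower. Of the 28 calls, 10 held under all 14 other settings: Mrpl45, Mrps6 and Mrps2 were higher, and Mrps28, Mrpl23, Mrpl24, Mrpl58, Mrpl30, Mrpl32 and Mrpl48 lower. Of the 49 members not called, 48 had a 95% interval of the log2 fold change inside -1 to 1, so a 2-fold change lay outside it.

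**Figure D2:**
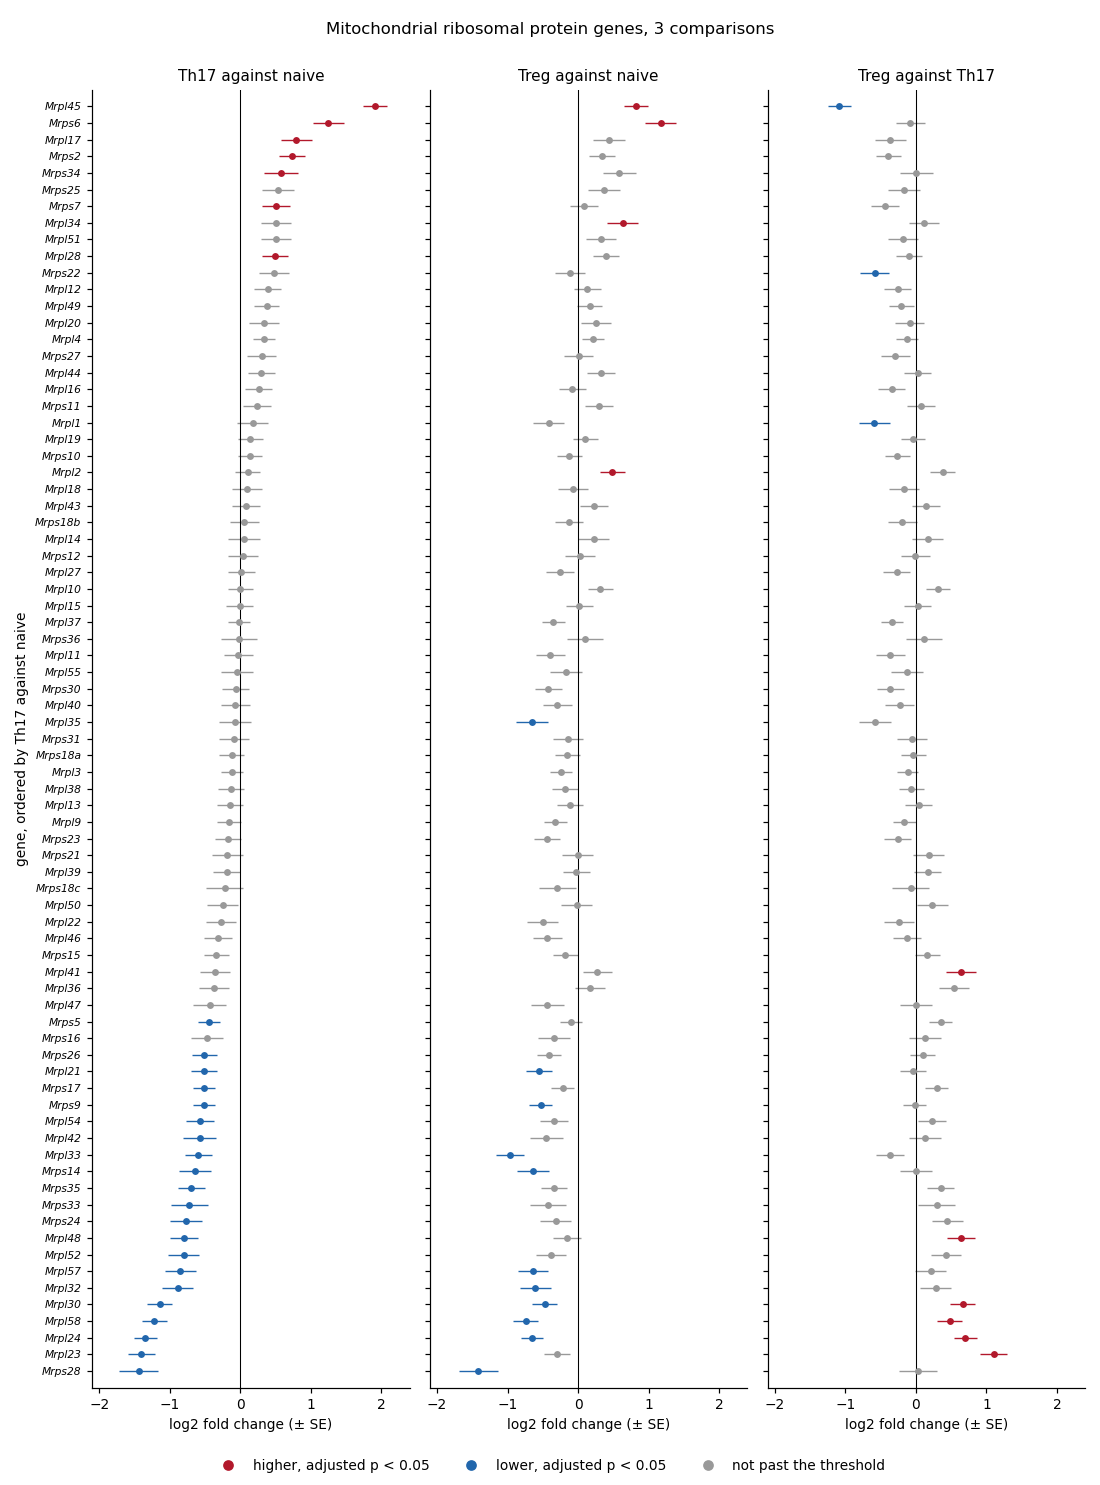
Log2 fold changes (x axis) of the 77 tested members (y axis, ordered by Th17 against naive) in the 3 comparisons, with bars of 1 SE from the edgeR fit. Red points were higher and blue points lower at an adjusted p under 0.05, grey points were not called; Mrpl45 stands apart at 1.91 in Th17 against naive and most of the others lie within 1 of 0.

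Among the large-subunit proteins, Mrpl45 (chr11:97315716-97329920) stood at 26.6 and 32.3 CPM in the naive, 118 and 103 in the Th17 and 53.2 and 50.98 in the Treg libraries. The groups did not overlap in any pair of types, and the order was naive, Treg, Th17. Its log2 fold change in Th17 against naive cells was 1.91 ± 0.17 (SE; adjusted p = 2.50e-07; 95% interval 1.55 to 2.26), the largest among the members. Of the table's genes, only a processed pseudogene with a mean of at most 0.428 CPM in any type overlaps Mrpl45. Mrpl17, a large-subunit protein kept from bacteria, stood at 20.97 and 33.6 CPM in the naive, 53.5 and 41.1 in the Th17 and 36.6 and 37.1 in the Treg libraries. Its log2 fold change was 0.80 ± 0.22 (adjusted p = 0.00677), a call that was lost without naive library 1 and without Th17 library 1. The third large-subunit gene that was higher, Mrpl28, had a log2 fold change of 0.49 ± 0.19 (adjusted p = 0.0362), a call that held in 9 of the 14 other settings.

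On the lower side, Mrpl23 (chr7:142532686-142540747) stood at 55.3 and 72.6 CPM in the naive, 22.3 and 26.1 in the Th17 and 47.2 and 56.8 in the Treg libraries. Both Th17 values lay below all 4 others, and the log2 fold change was -1.40 ± 0.19 (adjusted p = 2.08e-05). Mrpl24 (chr3:87919506-87923672) stood at 115 and 148 CPM in the naive, 50.9 and 52.5 in the Th17 and 82.3 and 85.5 in the Treg libraries. It had the highest level per kb of all members in naive cells (58.5 CPM per kb) and its lowest values in Th17 cells, with Treg cells between. Its log2 fold change was -1.35 ± 0.16 (adjusted p = 6.66e-06). Rrnad1, on the opposite strand, shares 1072 bases with Mrpl24 and stood at mean levels of 52.4, 37.1 and 47.9 CPM in the 3 types. Nothing used here states that the counting separated the strands, so reads of such pairs cannot be told apart.

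Mrpl58, a peptidyl-tRNA hydrolase built into the large subunit that frees stalled chains, stood at 59.9 and 80.00 CPM in the naive, 30.2 and 29.8 in the Th17 and 42.02 and 41.8 in the Treg libraries. Its log2 fold change in Th17 against naive cells was -1.22 ± 0.18 (adjusted p = 4.10e-05). Mrpl30, a large-subunit protein with a bacterial counterpart, stood at 81.4 and 110.4 CPM in the naive, 41.9 and 44.9 in the Th17 and 63.3 and 74.7 in the Treg libraries and had a log2 fold change of -1.14 ± 0.18 (adjusted p = 7.29e-05). In both genes the Th17 libraries were lowest and the Treg libraries lay between the other types. Mrpl32, whose processing by the membrane protease m-AAA is known to be a step of ribosome assembly, had a log2 fold change of -0.89 ± 0.22 (adjusted p = 0.00314). The other large-subunit genes that were lower were Mrpl21, Mrpl33, Mrpl42, Mrpl48, Mrpl52, Mrpl54 and Mrpl57, with log2 fold changes from -0.85 (Mrpl57) to -0.51 (Mrpl21).

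Of the 26 small-subunit genes, 4 were higher and 9 lower in Th17 than in naive cells, beside 3 and 12 of 50 in the large subunit. That is 15.4% and 34.6%, beside 6% and 24%, against 29.3% and 28.4% of all genes. In both subunits the split turned with the scaling and the naive libraries. Scaled by total count, 7 were higher and 2 lower in the small and 11 and 8 in the large subunit in Th17 cells. Without naive library 5 these counts were 6 and 2 and 7 and 6, and without naive library 1 they were 2 and 12 and 1 and 15. Without Th17 library 1 they were 2 and 4 and 1 and 8, and without Th17 library 5 the small subunit had 4 and 4.

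Mrps6 (chr16:92058270-92112227), a small-subunit protein kept from bacteria, stood at 9.10 and 11.95 CPM in the naive, 26.3 and 23.6 in the Th17 and 25.7 and 21.6 in the Treg libraries, with a log2 fold change of 1.25 ± 0.22 (adjusted p = 2.16e-04). Slc5a3, an inositol transporter gene on the same strand, shares 29152 bases with Mrps6 and stood at means of 34.5 CPM in the naive, 75.3 in the Th17 and 73.98 in the Treg libraries. Reads from the shared bases cannot be told apart. Mrps2 (chr2:28468066-28471178), which overlaps no other gene of the table, stood at 23.7 and 26.7 CPM in the naive, 41.9 and 41.6 in the Th17 and 29.04 and 34.8 in the Treg libraries. Its Th17 values were the highest and nearly equal, and the log2 fold change was 0.73 ± 0.18 (adjusted p = 0.00337).

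Mrps7, a protein of the small subunit's head, stood at 32.7 and 47.05 CPM in the naive, 62.4 and 51.3 in the Th17 and 38.6 and 45.7 in the Treg libraries, with a log2 fold change of 0.51 ± 0.20 (adjusted p = 0.0393) that was not called without naive library 1 or Th17 library 1. On the opposite strand, Mif4gd shares 119 bases with Mrps7 and stood at means of 69.7 CPM in the naive, 140.8 in the Th17 and 70.8 in the Treg libraries. Gga3 shares 127 bases with Mrps7 on that strand and stood at means of 91.7, 70.4 and 88.2 CPM. Reads from the shared bases cannot be told apart. Mrps34, a mitochondria-only protein that binds the small rRNA, stood at 19.8 and 30.2 CPM in the naive, 44.98 and 29.5 in the Th17 and 37.2 and 37.7 in the Treg libraries. Its naive and Th17 libraries overlapped, and its log2 fold change was 0.58 ± 0.24 (adjusted p = 0.0486), a call that held in 8 of the 14 other settings. Mapk8ip3, whose mean was 251 CPM over the naive, 204 over the Th17 and 195 over the Treg libraries, shares 2387 bases with Mrps34 on the opposite strand. Mrps28 (chr3:8802146-8923918), the mitochondrial relative of bacterial protein S1, stood at 19.7 and 31.8 CPM in the naive, 10.96 and 7.998 in the Th17 and 8.58 and 10.8 in the Treg libraries. Its naive values lay above all others, and its log2 fold change of -1.44 ± 0.27 (adjusted p = 3.89e-04) was the lowest among the members. The other small-subunit genes that were lower were Mrps5, Mrps9, Mrps14, Mrps17, Mrps24, Mrps26, Mrps33 and Mrps35, with log2 fold changes from -0.77 (Mrps24) to -0.45 (Mrps5).

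**Figure D3:**
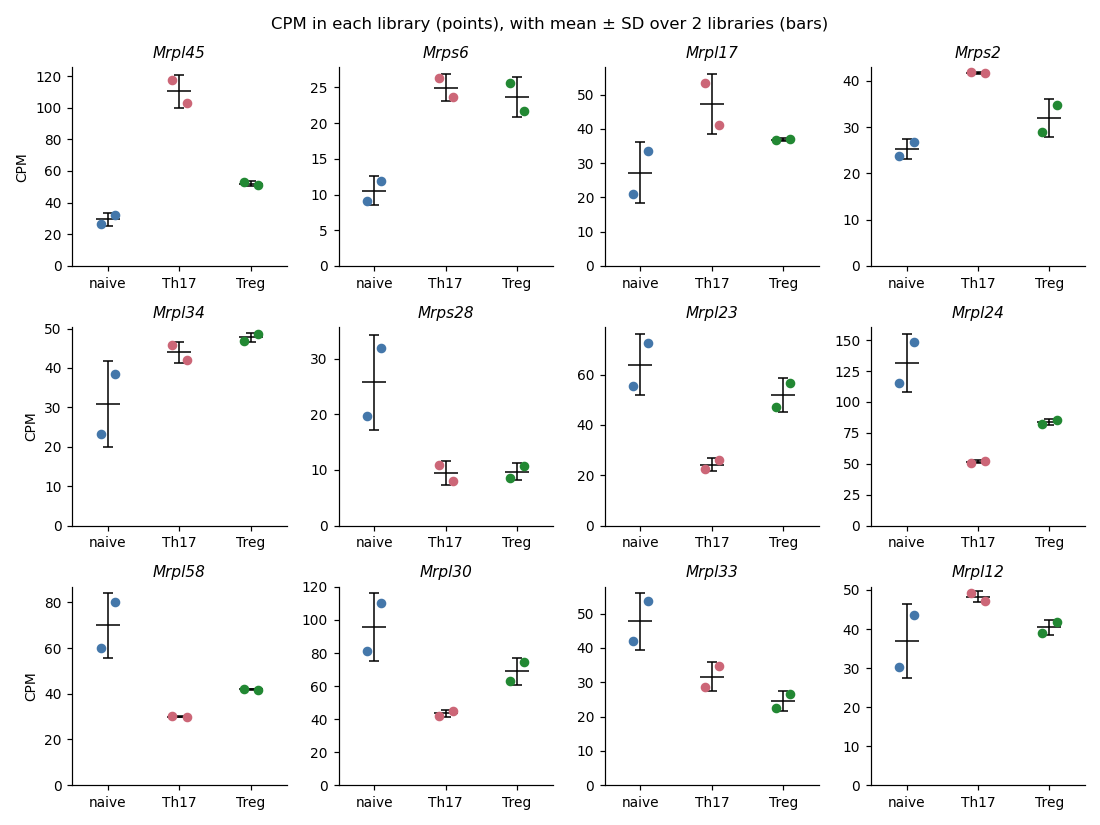
CPM (y axis, from 0) of 12 members in each cell type. Points are single libraries, and black bars give the mean and SD of 2 libraries; Mrpl45 rises from 26.6 and 32.3 in naive to 118 and 103 in Th17 libraries, whereas Mrpl23, Mrpl24, Mrpl58 and Mrpl30 are lowest in Th17 libraries.

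Several parts of the ribosome named by their role were not called in Th17 against naive cells. The stalk that recruits the translation factors is built on Mrpl10 and carries Mrpl12. Mrpl12 stood at 30.2 and 43.6 CPM in the naive, 49.3 and 47.3 in the Th17 and 39.05 and 41.8 in the Treg libraries, with a log2 fold change of 0.39 ± 0.19 (adjusted p = 0.0942; 95% interval -0.02 to 0.80). Mrpl10 and Mrpl11, at the base of the stalk, had log2 fold changes of 0.00 ± 0.17 and -0.03 ± 0.21. Mrpl3 and Mrpl4, deep in the large subunit, had -0.12 ± 0.15 and 0.34 ± 0.15, and Mrpl44 had 0.30 ± 0.19. Mrps12, next to the decoding site, had 0.04 ± 0.21, and the Mrps18 paralogs had -0.12 ± 0.18 (Mrps18a), 0.06 ± 0.20 (Mrps18b) and -0.22 ± 0.26 (Mrps18c). Mrps30 stood at -0.06 and Mrps36, which was set aside, at -0.02. None of these genes was called in Treg against naive cells either.

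In Treg cells, Mrps6 and Mrpl45 were again higher than in naive cells and Mrps28, Mrpl33 and Mrpl58 lower, and fewer members were called than in Th17 cells. Of 77, 4 were higher and 11 lower, or 19.5% against 43.4% of all genes called (23.6% higher and 19.9% lower). Only 2 members (2.60%) were called and changed at least 2-fold, against 26.8% of all genes, and these were Mrps6 and Mrps28. Over the nuclear respiratory chain genes this share was 2.56%. The median log2 fold change was -0.15, against -0.00 for all genes. The Treg libraries lay entirely above the naive ones for 13 members and entirely below for 30, against 36.5% and 35.2% of all genes. This comparison and that of Th17 cells share the naive libraries. Scaled by total count, 11 members were higher and 4 lower, so that 73.3% of calls were higher in place of 26.7%, and the median of all genes moved to 0.17. Over all genes, 67.0% of calls were higher by total count, in place of 54.3%. Scaled to the members themselves, 5 were higher and 3 lower (62.5%, against 63.6% of the calls over all genes). Without naive library 5, 13 were higher and 4 lower, and without naive library 1, 2 and 20. Without Treg library 1, 2 were higher and 3 lower, and without Treg library 5, 2 and 7. Of the 15 calls, 5 held under all 14 settings: Mrpl45 and Mrps6 were higher, and Mrps28, Mrpl33 and Mrpl58 lower.

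Mrps6 was 2.25-fold higher in Treg than in naive cells (log2 fold change 1.17 ± 0.22, adjusted p = 6.06e-04), and Mrpl45 1.77-fold (0.82 ± 0.16, adjusted p = 0.00103). Mrpl34, a small large-subunit protein kept from bacteria, stood at 23.2 and 38.5 CPM in the naive, 45.8 and 42.03 in the Th17 and 46.9 and 48.6 in the Treg libraries, and its log2 fold change was 0.63 ± 0.21 (adjusted p = 0.0276). Its naive library 1 was well below the other 5 libraries. Mrpl2, a core protein near the catalytic centre, stood at 29.8 and 34.4 CPM in the naive, 36.3 and 32.8 in the Th17 and 42.5 and 47.4 in the Treg libraries, and its Treg values were the highest (log2 fold change 0.49 ± 0.18, adjusted p = 0.0371). The calls of Mrpl34 and Mrpl2 held in 11 and 10 of the 14 other settings.

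On the lower side, Mrps28 had a log2 fold change of -1.41 ± 0.27 (adjusted p = 7.53e-04), close to its value in Th17 cells. Mrpl33, a small protein of the large subunit, stood at 41.9 and 53.7 CPM in the naive, 28.7 and 34.6 in the Th17 and 22.4 and 26.7 in the Treg libraries. Its Treg values were the lowest, and its log2 fold change was -0.96 ± 0.20 (adjusted p = 0.00119). Mrpl58 and Mrpl24 were lower by 1.67-fold and 1.57-fold (adjusted p = 0.00354 and 0.00447). Mrpl35, a large-subunit protein, stood at 19.4 and 29.6 CPM in the naive, 21.3 and 25.3 in the Th17 and 16.01 and 15.2 in the Treg libraries. It was called in Treg cells only (log2 fold change -0.65 ± 0.23, adjusted p = 0.0326), and its difference between Treg and Th17 cells missed the threshold (-0.58 ± 0.23, adjusted p = 0.0576). Its call against naive cells held in 9 of the 14 other settings. The other members that were lower, Mrpl21, Mrpl30, Mrpl32, Mrpl57, Mrps9 and Mrps14, were lower in Th17 cells as well.

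The comparison of Treg with Th17 cells had the fewest calls, led by higher Mrpl23 and Mrpl24 and lower Mrpl45 in Treg cells. Of 77 members, 6 were higher and 3 lower in Treg cells, or 11.7% against 38.4% of all genes called (19.0% higher and 19.4% lower). The median log2 fold change was -0.02 and the interquartile range was 0.39, against 0.02 and 1.06 for all genes. The Treg libraries lay entirely above the Th17 ones for 21 members and entirely below for 27, against 37.1% and 35.4% of all genes. All 6 higher members belong to the large subunit, as do 50 of the 77 tested members. In the fit on only the 4 libraries compared, 1 small-subunit gene was higher as well. Of the 9 calls, 3 held under all 14 settings: Mrpl23 and Mrpl24 were higher and Mrpl45 lower. Scaled by total count or by RLE, 5 were higher and 4 lower (55.6% higher in place of 66.7%), and scaled to the members themselves 5 and 1 (83.3%). Over all genes, 45.6% of calls were higher by total count, 47.0% by RLE and 50.4% when scaled to the members, in place of 49.5%. Without Th17 library 1, 2 were higher and 1 lower; without Th17 library 5, 3 and 1; without Treg library 1, 4 and 1; and without Treg library 5, 2 and 2.

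Mrpl23 was 2.15-fold higher in Treg than in Th17 cells (log2 fold change 1.10 ± 0.19, adjusted p = 3.25e-04), and its Treg and naive libraries overlapped. Mrpl24 and Mrpl30 were 1.62-fold and 1.59-fold higher (adjusted p = 0.00332 and 0.00777), and Mrpl58 1.40-fold (adjusted p = 0.0443). Mrpl48, a mitochondria-only protein of the large subunit, stood at 30.4 and 41.2 CPM in the naive, 19.7 and 21.5 in the Th17 and 33.4 and 30.97 in the Treg libraries (log2 fold change 0.64 ± 0.20, adjusted p = 0.0186). Rab6a, on the opposite strand, shares 892 bases with Mrpl48 and had 2.52 times its mean CPM, lengths aside. Mrpl41, also of mitochondria only, stood at 25.8 and 40.8 CPM in the naive, 25.7 and 26.1 in the Th17 and 38.5 and 41.98 in the Treg libraries (log2 fold change 0.63 ± 0.21, adjusted p = 0.0280). The calls of Mrpl48 and Mrpl41 held in 10 of the 14 other settings. Both were lost on leaving out any single Th17 or Treg library.

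Mrpl45 was 2.12-fold lower in Treg than in Th17 cells (log2 fold change -1.08 ± 0.16, adjusted p = 9.51e-05). Mrpl1, the protein of the mobile stalk beside the tRNA exit, stood at 18.1 and 22.4 CPM in the naive, 22.5 and 23.1 in the Th17 and 12.98 and 17.4 in the Treg libraries, with a log2 fold change of -0.59 ± 0.22 (adjusted p = 0.0448). Mrps22, a mitochondria-only protein of the small subunit, stood at 14.6 and 18.7 CPM in the naive, 24.2 and 22.1 in the Th17 and 14.6 and 16.2 in the Treg libraries, with a log2 fold change of -0.58 ± 0.21 (adjusted p = 0.0404). For Mrps22 both Th17 libraries were higher than the other 4, while for Mrpl1 naive library 5 came close to the Th17 values. The calls of Mrpl1 and Mrps22 held in 10 and 8 of the 14 other settings.

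Over the 3 comparisons, 34 of the 77 tested members were called at least once and 43 never. How many of all genes were called at least once was not counted. In the single comparisons, 36.4%, 19.5% and 11.7% of members were called, against 57.7%, 43.4% and 38.4% of all genes. Mrpl24, Mrpl30 and Mrpl58 shared a pattern of naive highest, Treg between and Th17 lowest, with all 3 differences called. For Mrpl30 and Mrpl58 that pattern was not stable: Mrpl30 was called in Treg against naive cells in 6 of the 14 other settings, and Mrpl58 in Treg against Th17 cells in 5 of 14. Leaving out either Th17 library or either Treg library ended both of these calls. For Mrpl24, the difference between Treg and naive cells was lost without Treg library 1 and when scaled to the members. Mrpl45 was the single member with the reverse order called in full, and its 3 calls held under all 14 settings. Mrpl23 and Mrpl48 were lower in Th17 cells than in both other types, although the difference of Mrpl48 from Treg cells was lost without any 1 of the 4 Th17 and Treg libraries. A further 7 members were lower than naive in both Th17 and Treg cells, and Mrps6 was higher in both. By mean CPM, 43 members were highest in naive, 22 in Th17 and 12 in Treg cells, or 55.8%, 28.6% and 15.6% against 39.8%, 36.0% and 24.3% of all genes. The naive means include naive library 5, in which 72 of the 77 members were higher than in naive library 1. Without naive library 5, the members' median log2 fold change against naive was 0.09 in Th17 and 0.04 in Treg cells. The order of the means was not recomputed without that library. Among all genes tested, 29.3% were called higher and 28.4% lower in Th17, and 23.6% and 19.9% in Treg cells, against naive. Of the 37 tested members that share no base with another gene of the table, 2 were higher and 12 lower in Th17, and 1 and 5 in Treg cells, against naive. These counts were 6 and 5 in Th17 and 3 and 0 in Treg cells when scaled by total count. Without naive library 5 they were 4 and 4 and 5 and 0, and without naive library 1 they were 1 and 16 and 0 and 10. Without Th17 library 1 they were 1 and 7 in Th17 cells, and without Th17 library 5 they were 1 and 9. Without Treg library 1 they were 1 and 12 in Th17 and 0 and 0 in Treg cells, and without Treg library 5 they were 0 and 3 in Treg cells.

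The partners of these proteins were described from lists of genes by role. Of 5 other subunits without an Mrp name (Dap3, Ptcd3, Chchd1, Aurkaip1 and Gadd45gip1), 1 was lower in Th17 than in naive cells, Aurkaip1 at a log2 fold change of -0.71 ± 0.21 (adjusted p = 0.00875), and 1 in Treg cells, Ptcd3 at -0.46 ± 0.15 (adjusted p = 0.0234). Each is 20% of the 5, against 28.4% and 19.9% of all genes called lower. The Aurkaip1 call was lost without naive library 5 or Th17 library 1, and the Ptcd3 call without naive library 5 or either Treg library. Without naive library 1, 2 of the 5 were lower in Th17 and 4 in Treg cells. Of 26 genes for assembly of the ribosome and modification of its RNA, 3 were higher and 7 lower in Th17, and 3 and 4 in Treg cells. Called either way were 38.5% and 26.9%, against 57.7% and 43.4% of all genes. The counts were 6 and 5 in Th17 and 5 and 3 in Treg cells when scaled by total count, and without Treg library 5 they were 1 and 3 in Treg cells. Ddx28, an RNA helicase needed to build the large subunit, stood at 8.002 and 9.19 CPM in the naive, 21.8 and 20.02 in the Th17 and 19.8 and 19.3 in the Treg libraries, and was 2.43-fold and 2.27-fold higher than naive in Th17 and Treg cells (adjusted p = 1.41e-04 and 4.61e-04). Noa1 and Ybey were higher in both types as well, but their calls did not hold without single libraries: Noa1 was lost without naive library 1 in both comparisons, and Ybey without naive library 5. Mterf3, a regulator of ribosome assembly and mitochondrial transcription, stood at 60.6 and 67.6 CPM in the naive, 24.6 and 30.5 in the Th17 and 34.6 and 34.1 in the Treg libraries, and was lower in both (log2 fold change -1.22 ± 0.18 and -0.90 ± 0.17). Mtg2, a GTPase of large-subunit assembly, and Fastkd2, which binds the large rRNA, were also lower in both. Mrm1, Mettl17, Rbfa and Rpusd4 were lower in Th17 cells, and Tfb1m in Treg cells. Of these calls, that of Rpusd4 held in 5 of the 14 other settings, that of Mtg2 in Treg cells in 5 and that of Fastkd2 in Th17 cells in 9.

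Of 14 translation factors, 3 were higher and 2 lower in Th17 than in naive cells. That is 21.4% and 14.3%, against 29.3% and 28.4% of all genes. The elongation factors were the higher ones: Gfm1, which moves the ribosome along, stood at 35.2 and 35.03 CPM in the naive, 59.95 and 55.2 in the Th17 and 40.4 and 43.5 in the Treg libraries (log2 fold change 0.71 ± 0.16, adjusted p = 0.00175), Tsfm had 0.72 ± 0.19 and Tufm, which delivers the tRNAs, 0.50 ± 0.15 (adjusted p = 0.00472 and 0.00970). The initiation factor Mtif3 was lower (-0.87 ± 0.22, adjusted p = 0.00372), as was Taco1, the activator of Cox1 translation (-0.54 ± 0.21, adjusted p = 0.0406). The call of Taco1 held in 2 of the 14 other settings and was lost without any 1 of the 6 libraries, and those of Mtif3 and Tufm were lost without Th17 library 1, so that 0 were lower. In Treg cells only Mrrf, the recycling factor, was called (0.62 ± 0.21, adjusted p = 0.0255), and it was higher, a call lost without naive library 1 or Treg library 5. That is 7.14% of the 14 called, against 43.4% of all genes. With total count scaling, 5 were higher and 0 lower in Treg cells. Of 11 genes of mitochondrial DNA transcription and replication, 1 was higher (Polrmt, the RNA polymerase) and 6 lower in Th17 cells, among them Tfam, which packs mitochondrial DNA (-0.77 ± 0.17, adjusted p = 0.00112), and Ssbp1, the single-strand binding protein (-0.94 ± 0.20, adjusted p = 0.00102). That is 9.09% higher and 54.5% lower, against 29.3% and 28.4% of all genes. The call of Polrmt was lost without naive library 5 or Th17 library 1, and 2 genes were higher without naive library 1 and without Th17 library 5.

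The genes that the mitochondrial ribosome translates were lower in Th17 and Treg than in naive cells. Of these 13 genes of mitochondrial DNA, 11 were called lower in Th17 and 10 in Treg cells and 0 higher, with median log2 fold changes of -1.49 and -1.13. That is 84.6% and 76.9% lower, against 28.4% and 19.9% of all genes. Without naive library 5, 7 were called in each comparison, and without Treg library 1, 6 in Treg cells. The median in Th17 cells was -2.48 without Th17 library 5. All genes of mitochondrial DNA together took 3.42% and 3.45% of counts in the naive, 1.10% and 1.74% in the Th17 and 1.60% and 1.88% in the Treg libraries. Of 78 tested nuclear genes of the respiratory chain and ATP synthase, 4 were higher and 28 lower in Th17, and 4 and 8 in Treg cells, with medians of -0.25 and -0.18. In Th17 cells that is 5.13% higher and 35.9% lower, against 29.3% and 28.4% of all genes. In Treg cells it is 5.13% and 10.3%, against 23.6% and 19.9%. That split too rested on the scaling and the naive libraries. Scaled by total count, 13 were higher and 17 lower in Th17, and 10 and 3 in Treg cells. Without naive library 5 the counts were 12 and 13 in Th17 and 8 and 1 in Treg cells, without naive library 1 they were 5 and 42 and 4 and 29, and without Treg library 1 they were 4 and 0 in Treg cells. Without Treg library 5 they were 3 and 5 in Treg cells, and without Th17 library 1 and Th17 library 5 in turn, 4 and 19 and 6 and 19 in Th17 cells.

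Of 80 cytosolic ribosomal protein genes, 2 were higher and 74 lower in Th17, and 1 and 60 in Treg cells, with medians of -1.62 and -0.83. Their medians stayed below 0 under every scaling and without any 1 library. Fewer were lower in Treg cells without naive library 5 (33, with a median of -0.55) and without Treg library 1 (22). With any 1 of the 6 libraries left out, 0 were higher in Treg cells, and 1 was higher in Th17 cells without naive library 1 and without Th17 library 1. Between Treg and Th17 cells, 19.0% of all genes were higher in Treg cells and 19.4% lower. Of the 80 cytosolic genes, 50 were higher in Treg cells and 1 lower (median 0.72), beside 6 and 3 of the 77 members (median -0.02). Without Th17 library 1 that count of higher genes was 15, and without Treg library 5 it was 10. These are descriptions by count and median, and the difference between lists was not tested.

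**Figure D4:**
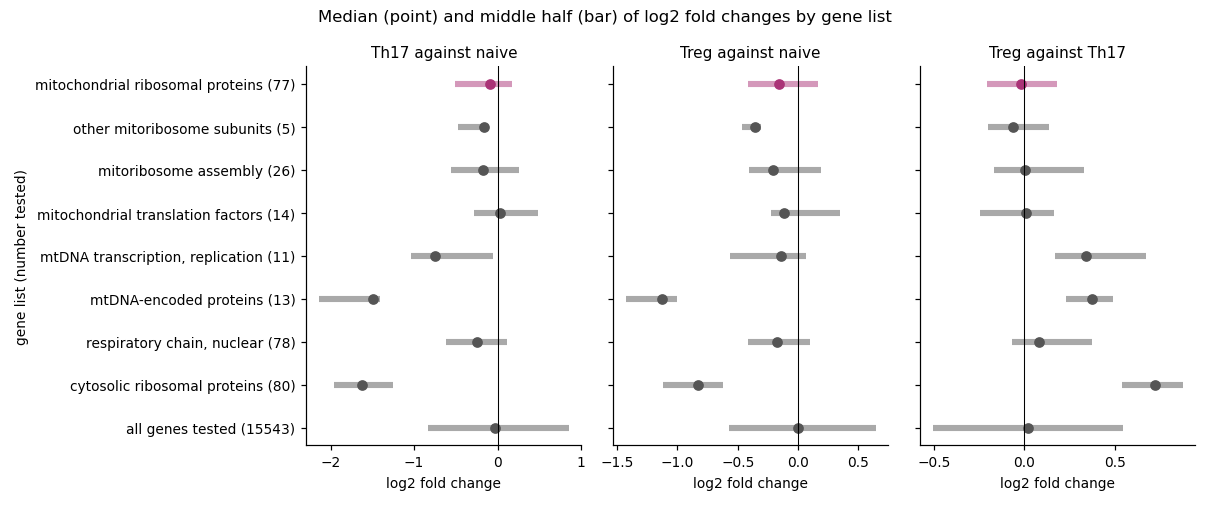
Log2 fold changes (x axis) by gene list (y axis, with the number tested) in the 3 comparisons. Points are medians and bars span the middle 50% of genes. The mitochondrial ribosomal protein genes lie near 0 (medians -0.09, -0.15 and -0.02), whereas the cytosolic ribosomal protein genes lie at -1.62, -0.83 and 0.72. In Th17 against naive, the median is -0.16 for other mitoribosome subunits, -0.18 for assembly, 0.02 for translation factors and -0.25 for the nuclear respiratory chain.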

How the data were processed

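Per the labels' protocols, RNA came from a Qiagen micro column kit and the libraries from SMARTER mRNA chemistry. The tools in the submitters' processing notes were cutadapt, STAR and DESeq2, on mm10 and without versions, while no source used here names the counting tool, its use of strand or the annotation release. The authors deposited 1 table that holds raw counts, as its whole numbers show, for each gene in each library, and the gene lengths used for levels per kb. Its 6 other columns of per-library values were not used. Of its genes, 98.3% have the coordinates of GENCODE release M21. Columns are numbered 1 and 5 within a type, and sample titles 1 and 2, so columns were matched to types only.

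Counts were tested with edgeR 4.0.16 in R 4.3.3 (filterByExpr at a minimum count of 10, TMM scaling, quasi-likelihood F-test in a group-means model of all 6 libraries, which leaves 3 residual degrees of freedom), with Benjamini-Hochberg adjustment over 15543 genes and calls at an adjusted p under 0.05. CPM uses TMM-scaled totals. The SE was taken as the size of the log2 fold change over the root of its F statistic, and intervals and floors cover the spread between libraries or counting error only. The fit was also run on simulated counts, with the same spread for every gene and few genes changed. That run cannot speak for the scaling or the error control in these data. Replicates differed by more than sampling noise, with a chi-square per degree of freedom of 15.3 to 33.7. DESeq2 1.42.0 and limma 3.58.1 were run as alternatives, as were other scalings, no filter, only the 4 libraries compared, leaving out each library, and the number in the column names as a block.

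The members, lists, motifs and naming rule were chosen with earlier results of these data known. The rule names, per comparison, the 5 called members with the largest change each way whose libraries do not overlap, up to 4 called against the majority, the 3 highest and 3 lowest per kb, and members fixed by role. Promoter sequences are RefSeq's on GRCm38.p6, and for 65 of 69 windows the transcribed part was found near a GENCODE transcript start of the gene.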

Additional observations from a re-analysis of the deposited data

How the results depend on the processing

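The counts of called members moved with scaling and with single libraries, and no change of direction was found for a called member named here. In Th17 against naive cells (7 higher, 21 lower), total count scaling gave 18 and 10, and scaling to the members themselves, chosen after seeing the data, gave 11 and 11. Leaving out 1 library gave 3 to 13 higher and 8 to 27 lower. In Treg against naive cells (4 and 11), total count scaling gave 11 and 4, scaling to the members themselves 5 and 3, and leaving out 1 library 2 to 13 higher and 3 to 20 lower. In Treg against Th17 cells (6 and 3), scaling to the members themselves gave 5 and 1, and leaving out 1 library 2 to 8 higher and 1 to 4 lower. The cause was not tested. RLE scaling, no filter, DESeq2, limma-voom and the fit on only the 4 libraries compared kept each count within 1.5 times. A library left alone by leaving out its partner was assumed to vary like the other types.

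With the number in the column names as a replicate block, 10 members were higher and 21 lower in Th17 and 4 and 12 in Treg against naive cells, and 7 and 4 in Treg against Th17 cells. The samples share only a number, since neither labels nor titles pair them.

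The members' median log2 fold change ranged from -0.27 to 0.16 in Th17 and from -0.28 to 0.04 in Treg against naive cells, and from -0.08 to 0.05 in Treg against Th17 cells, so its sign was not stable. At 2 libraries per type, the SE of a member's log2 fold change was 0.15 to 0.27, which limits what can be called.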

Other observations

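The regulators linked to mitochondrial biogenesis went both ways. Of 9 listed genes 8 were tested, and 3 were higher and 3 lower in Th17 than in naive cells. That is 37.5% each way, against 29.3% and 28.4% of all genes. Without Th17 library 1, 1 was higher and 2 lower, and without naive library 1, 2 and 2. Myc, a transcription factor of cell growth, stood at 88.7 and 91.6 CPM in the naive, 315 and 323 in the Th17 and 377 and 308 in the Treg libraries, with log2 fold changes against naive of 1.82 ± 0.17 in Th17 and 1.92 ± 0.17 in Treg cells (edgeR adjusted p = 4.48e-07 and 4.59e-07). Pprc1 and Gabpb1 were higher in Th17 cells by 0.51 and 0.44 (adjusted p = 0.0275 and 0.0331), and both calls were lost without Th17 library 1. Gabpa, the DNA-binding partner of Gabpb1, stood at 95.9 and 99.1 CPM in the naive, 55.1 and 57.1 in the Th17 and 67.6 and 77.7 in the Treg libraries and was lower in Th17 and Treg cells (-0.80 ± 0.15 and -0.42 ± 0.15; adjusted p = 4.30e-04 and 0.0344), the second of which held in 5 of the 14 other settings. Ppargc1b, a coactivator of mitochondrial genes, stood at 20.3 and 15.3 CPM in the naive, 4.92 and 4.99 in the Th17 and 13.9 and 11.8 in the Treg libraries, with -1.84 ± 0.25 in Th17 cells (adjusted p = 2.41e-05). Esrra was lower in Th17 cells (-0.57 ± 0.17, adjusted p = 0.0107), a call lost without naive library 1 or Th17 library 1. Nrf1 and Yy1, whose motif letters are described above, were not called in any comparison, with log2 fold changes of -0.11 and 0.03 in Th17 cells. Ppargc1a was at 0 or 1 count in every library.

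Of 5 processed pseudogenes of the members in the table, the summed counts over the 6 libraries were 59 for Mrpl48-ps, 72 for Mrpl23-ps1, 16 for Mrps36-ps1, 15 for Mrps36-ps2 and 0 for Mrps36-ps3.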
